A study of Mus musculus with 24 samples.

Results

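The flagellin response of macrophages of the B6 strain was read from 6 of the 24 arrays of the series, namely the 3 titled as stimulated B6-Il10-/- and the 3 titled as unstimulated B6-Il10-/-. The arrays were chosen by these titles and not by any measured value. All mice of the series, 3 per genotype, were Il10-deficient males, so the controls lacked interleukin-10 as well, and the B6 mice were of strain C57BL/6J-Il10tm1Cgn, which the series describes as resistant to colitis. Bone marrow cells were cultured for 6 days as macrophages. The flagellin group received Cbir1 flagellin, a flagellin of commensal gut bacteria, at 1 µg/mL for 4 h on the last day, and the unstimulated group received medium. RNA was pooled from 3 wells of a 6-well plate for each sample. Of the other strains, each with 3 flagellin and 3 unstimulated arrays, BC-R3 (B6.Cg-Il10tm1Cgn Cdcs1) is B6 with the C3Bir alleles of Cdcs1, a colitis susceptibility locus on chromosome 3. C3Bir (C3H/HeJBir-Il10tm1Cgn) is the susceptible strain, and CB-R1 (C3Bir.Cg-Il10tm1Cgn Cdcs1) is C3Bir with a stretch of B6 chromosome 3 around Cdcs1. These 3 strains serve only to show where the B6 change differs.

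Flagellin is the protein of the bacterial flagellum. At the cell surface it is bound by Toll-like receptor 5, which signals through the adaptor Myd88 to NF-kB, and in the cytosol it is bound by NAIP proteins, which assemble the NLRC4 inflammasome. In macrophages, Toll-like receptor signalling is known to induce cytokine and chemokine genes, and type I interferon released by the cells induces antiviral genes in the same and in neighbouring cells. Interleukin-10 normally restrains this output. Values below are log2 signals of 1 probe set per gene on an Affymetrix array, as the authors deposited them, and differences are flagellin minus unstimulated.

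The arrays labelled unstimulated were not alike. Across genes, unstimulated arrays 2 and 3 correlated at 0.997 with each other, and at 0.987 and 0.986 with unstimulated array 1. Unstimulated array 1 correlated at 0.995, 0.990 and 0.992 with flagellin arrays 1, 2 and 3, which correlated at 0.989 to 0.994 among themselves. The mean over 23 inflammatory cytokine genes was 7.76, 7.74 and 7.46 on flagellin arrays 1 to 3, against 7.93, 9.53 and 9.61 on unstimulated arrays 1 to 3. Unstimulated arrays 2 and 3 thus stood highest, while unstimulated array 1 lay 0.17 above the highest flagellin array. Array medians of the 6 lay between 6.55 and 6.62, and lower quartiles of all arrays at 5.29 to 5.42. The table gives no call of detection, so a value near or below that quartile is read as a signal only. The labels tie no array number to a mouse, so a p-value here reflects the spread among arrays, whatever its source. With 3 mice per genotype and 3 arrays per group, the same mice may have supplied both groups. The main fit treats the arrays as independent, and any such pairing is unknown. The labels name no batches. Whether the arrays carry the right labels was not tested, and every difference below is between the arrays as labelled. With 3 arrays against 3 an exact permutation test cannot go below 0.1 (two-sided), and the number of arrays limits the precision.

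The labelled cell type was checked on 12 macrophage markers. All 12 lay at 8.94 or above on each of the 6 arrays, with the growth factor receptor Csf1r at 13.48 to 13.97 and the lysozyme gene Lyz2 at 14.04 to 14.44. None of them passed the test between the groups. Il10, the gene targeted in every mouse, gave 7.07, 6.91 and 6.72 with flagellin, against 7.16, 8.70 and 8.41 unstimulated (limma adjusted p 0.00606, up to 0.0531 with 1 array left out). Where its probe set lies relative to the disruption was not examined.

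**Figure D1:**
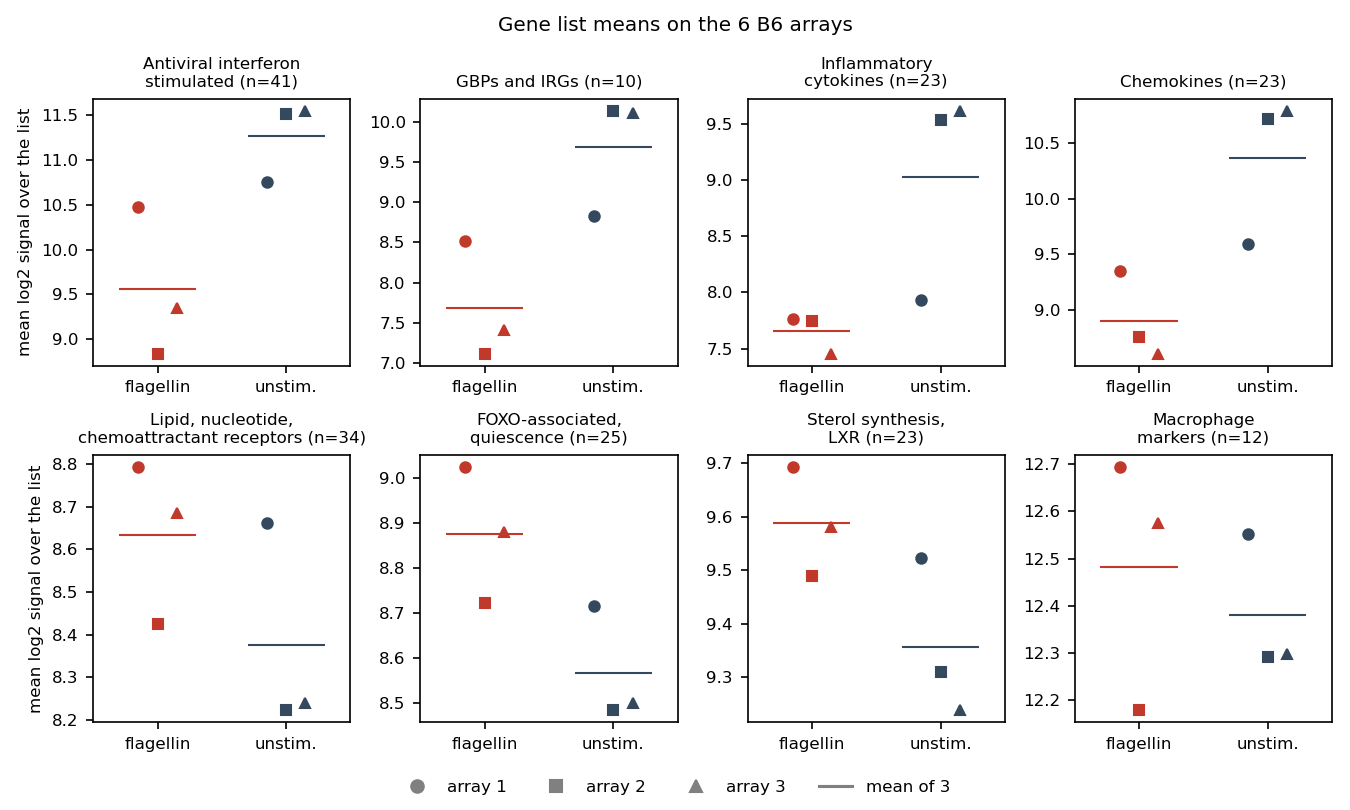
Mean log2 signal over the measured members of 8 gene lists on each of the 6 B6 arrays, flagellin left and unstimulated right, with the symbol giving the array number and the line the mean of 3. On the interferon, GBP, cytokine and chemokine lists unstimulated arrays 2 and 3 stand highest, with unstimulated array 1 between them and the flagellin arrays; cytokine means are 7.76, 7.74 and 7.46 with flagellin against 7.93, 9.53 and 9.61 unstimulated.

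On the B6 arrays labelled flagellin, inflammatory genes and genes that interferon induces stood below their level on the arrays labelled unstimulated, and receptors for lipids and chemokines, circadian factors and sterol enzymes were among the genes that were higher. Limma, fitted to all 24 arrays as 8 group means with Benjamini-Hochberg adjustment, called 4068 of 18193 genes (22.4%) at an adjusted p under 0.05, 2342 higher (12.9%) and 1726 lower (9.49%) with flagellin. After median centring, which removes the difference in medians given above, the split was 2921 higher and 1196 lower. After quantile normalization it was 1623 higher and 1511 lower. Of the calls, 447 rises (2.46%) and 337 falls (1.85%) stayed called whichever 1 of the 6 B6 arrays was left out. The other calls needed 1 or more particular arrays, since 985 genes were called without unstimulated array 3, 1039 without unstimulated array 2 and 2214 without flagellin array 1. No gene passed when the 6 arrays were fitted alone (lowest limma adjusted p 0.114, 4524 genes at an unadjusted p under 0.05), nor without unstimulated arrays 2 and 3 together (lowest 0.376, 1316 genes at an unadjusted p under 0.05). With a weight for the spread of each group, limma called 1490 genes, 896 higher and 594 lower; the weights of B6 flagellin, 0.57, and B6 unstimulated, 0.73, were the lowest of the 8 groups, and the others lay between 0.83 and 1.63. "Rose" and "fell" below refer to the fit of all 24 arrays, and counts in gene lists stand beside the shares of all genes given above. Each SE also comes from that fit, in which the spread is shared over the 8 groups. It is therefore the same for every strain and does not show the spread of the B6 arrays alone.

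The order of the arrays was alike over most called genes. Among the 1726 genes that fell, unstimulated array 1 lay below both other unstimulated arrays in 1331, and among the 2342 that rose it lay above both in 2199. The share of all genes with either order was not counted. Of all 18193 genes, 2840 had all 3 flagellin arrays above all 3 unstimulated arrays (15.6%) and 2553 had them below.

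**Figure D2:**
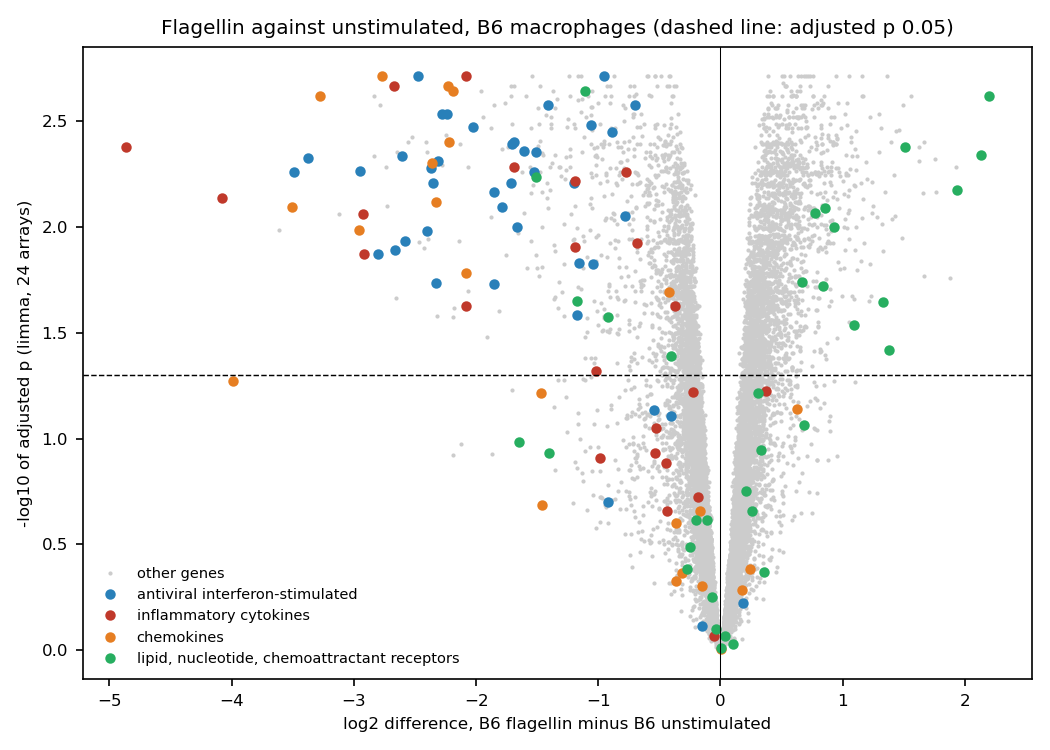
Each point is 1 of 18193 genes, with the log2 difference between B6 flagellin and B6 unstimulated on the x axis and −log10 of the limma adjusted p on the y axis. Points above the dashed line have an adjusted p under 0.05. Coloured points mark 4 gene lists: the 41 antiviral genes have a median of -1.71 and the 34 surface receptors a median of 0.23.

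Antiviral interferon-stimulated genes formed the list with the highest count of falls. Of 41 measured genes 36 fell and 0 rose, 23 of them whichever array was left out, and the list's median was -1.71 against -0.02 over all genes. Mx1, an interferon-induced gene of a GTPase family, gave 10.60, 7.23 and 8.32 on flagellin arrays 1 to 3. Unstimulated arrays 1 to 3 gave 11.31, 12.69 and 12.63, and the difference was -3.49 ± 0.77 (log2 ± SE, limma adjusted p 0.00551). The groups did not overlap, but flagellin array 1 lay within 1 log2 unit of unstimulated array 1 and more than 2 units above the other flagellin arrays. Oasl1, an oligoadenylate synthetase-like protein, stood at 10.53, 8.08 and 8.02 with flagellin and at 11.55, 12.56 and 12.65 unstimulated (-3.38 ± 0.71, limma adjusted p 0.00471). Cmpk2, a mitochondrial nucleotide kinase that is interferon-induced, had 11.34, 8.31 and 9.35 with flagellin against 11.72, 13.18 and 12.95 unstimulated (-2.95 ± 0.64, limma adjusted p 0.00544). Usp18, the protease that removes the ubiquitin-like Isg15 from proteins, had 10.97, 8.29 and 9.26 with flagellin and 11.28, 12.45 and 12.61 unstimulated. In these 4 genes flagellin array 1 was the highest flagellin array, and unstimulated arrays 2 and 3 were within 0.3 of each other. Ifit1, an antiviral RNA-binding protein, fell by 2.80 (limma adjusted p 0.0134, and up to 0.0662 with 1 array left out). Outside the list, Ifi213, of a family of interferon-inducible DNA sensors, fell by 2.79, whichever array was left out.

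Without unstimulated arrays 2 and 3 the median of the antiviral list was -1.13, with 25 of 41 genes at an unadjusted p under 0.05 and none called. The list's mean on single arrays was 10.48, 8.84 and 9.35 with flagellin, against 10.75, 11.52 and 11.55 unstimulated, so that flagellin array 1 and unstimulated array 1 were separated by less than the flagellin arrays among themselves.

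Guanylate-binding proteins and immunity-related GTPases, which attack the vacuoles of intracellular pathogens, fell as a group, with 9 of 10 lower, 4 whichever array was left out, and a median of -2.26. Gbp7 was measured at 8.99, 7.07 and 7.59 with flagellin, against 9.24, 11.47 and 11.46 unstimulated (-2.84 ± 0.59, limma adjusted p 0.00464). Gbp6 gave 7.04, 6.09 and 5.80 with flagellin and 7.55, 9.82 and 10.07 unstimulated (-2.83 ± 0.49, limma adjusted p 0.00241). In Gbp7 unstimulated array 1 lay 0.25 above flagellin array 1, while unstimulated arrays 2 and 3 lay above it by more than 2 log2 units. Gbp3 and Iigp1 fell, with differences of -2.73 and -3.12, and each lost its call with 1 array left out, at limma adjusted p values of up to 0.0569 and 0.0556.

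In the list of interferon-related transcription factors, receptors and kinases 8 of 19 genes fell and 0 rose, with a median of -0.33. Irf1, an interferon-induced transcription factor, had 10.996, 10.43 and 10.37 with flagellin and 11.57, 12.33 and 12.26 unstimulated (-1.45 ± 0.30, limma adjusted p 0.00460). Batf2, a basic leucine zipper factor, had 8.88, 8.35 and 8.50 with flagellin against 9.33, 10.45 and 10.57 unstimulated (-1.54 ± 0.23, limma adjusted p 0.00193). Both were called whichever array was left out. Irf7, the master factor of type I interferon induction, differed by -1.75 ± 0.47 (limma adjusted p 0.0136, up to 0.0745 with 1 array left out), and Stat2, a transcription factor of interferon signalling, by -1.46 ± 0.40.

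Peptide loading of MHC class I, which interferons induce, followed in part. In that list 8 of 16 genes fell and 1 rose. Tap1, a subunit of the peptide transporter, gave 10.24, 9.01 and 9.31 with flagellin, against 10.57, 11.57 and 11.57 unstimulated (-1.72 ± 0.30, limma adjusted p 0.00241), and Psmb9, an immunoproteasome subunit, gave 10.43, 9.82 and 9.86 with flagellin against 10.64, 11.27 and 11.21 unstimulated (-1.003 ± 0.18, limma adjusted p 0.00259). Both kept the 3 flagellin arrays below the 3 unstimulated arrays. Of 16 class II and costimulatory genes 5 fell, and 0 of them did so whichever array was left out. Cd40, the costimulatory receptor for T cell help, had 10.21, 9.40 and 9.09 with flagellin and 11.01, 12.80 and 12.85 unstimulated, and the early activation marker Cd69 had 8.96, 6.40 and 7.33 with flagellin and 9.67, 11.93 and 11.91 unstimulated. Cd274, a ligand that restrains T cells, fell by 1.28 (limma adjusted p 0.0150, up to 0.0973 with 1 array left out).

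The promoters of 4 genes that fell are shown because interferon response elements and kappa-B sites mark the 2 pathways named above. Each is the 250 bases upstream of the gene start in RefSeq on GRCm38.p6, read 5′ to 3′ on the gene's strand. Capitals mark matches on either strand to the core of the interferon-stimulated response element, which is GAAA, any 2 bases and GAAA, or to the kappa-B consensus, and overlapping matches were kept.
Gbp7 (chr3:142530086-142530335, plus strand): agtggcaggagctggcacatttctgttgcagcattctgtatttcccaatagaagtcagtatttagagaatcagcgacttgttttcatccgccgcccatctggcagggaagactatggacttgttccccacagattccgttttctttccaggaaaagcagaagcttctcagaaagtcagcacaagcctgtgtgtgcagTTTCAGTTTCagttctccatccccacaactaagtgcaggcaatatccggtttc
Ifit1 (chr19:34640639-34640888, plus strand): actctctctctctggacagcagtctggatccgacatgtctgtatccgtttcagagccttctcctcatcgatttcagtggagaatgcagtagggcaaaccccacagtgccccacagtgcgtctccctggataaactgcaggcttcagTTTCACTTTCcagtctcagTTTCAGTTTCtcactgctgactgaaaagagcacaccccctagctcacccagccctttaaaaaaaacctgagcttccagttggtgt
Cxcl10 (chr5:92348890-92349139, minus strand): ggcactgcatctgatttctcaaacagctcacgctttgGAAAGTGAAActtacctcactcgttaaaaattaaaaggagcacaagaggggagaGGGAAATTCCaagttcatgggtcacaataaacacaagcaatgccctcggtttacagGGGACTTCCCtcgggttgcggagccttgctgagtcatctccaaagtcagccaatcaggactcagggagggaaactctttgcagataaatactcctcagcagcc
Il6 (chr5:30012864-30013113, plus strand): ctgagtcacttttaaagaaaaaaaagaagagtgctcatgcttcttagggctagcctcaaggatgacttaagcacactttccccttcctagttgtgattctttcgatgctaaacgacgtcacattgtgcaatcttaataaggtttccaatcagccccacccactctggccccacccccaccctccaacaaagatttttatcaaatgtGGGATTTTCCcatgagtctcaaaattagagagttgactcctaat
In Gbp7 the response element core ends 44 bases before the start, in Ifit1 there were 2 cores ending 95 and 76 bases before it, and in Cxcl10 1 core ended 204 bases before it, with kappa-B matches ending 150 and 94 bases before it. Il6 held 1 kappa-B match, 35 bases before the start, and no response element core in this window. The 4 genes are examples that hold a match and do not stand for all genes that fell. Among others that fell, Cmpk2, Cxcl9, Tap1, Tnf, Il12b and Il1b held neither sequence in their windows. Of 14368 tested genes with a promoter in the table, 452 (3.15%) held the response element core in at least 1 window, as did 978 of all 32851 windows (2.98%). The core was found in 24 of 264 genes that fell whichever array was left out (9.09%) and in 3 of 379 genes that rose so (0.792%). It was found in 7 of 7 guanylate-binding and immunity-related GTPase genes and in 9 of 31 antiviral genes (29.0%). The kappa-B consensus was found in 769 of the 14368 genes (5.35%) and in 1281 of all windows (3.90%), in 14 of the 264 (5.30%) and in 17 of the 379 (4.49%). Among cytokines 5 of 16 held it, and among chemokines 5 of 15. These are matches of letters, and they do not show that a factor binds.

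Inflammatory cytokines fell in 14 of 23 measured genes, 5 of them whichever array was left out, with 0 higher and a median of -0.99. Il6, the gene of the acute-phase cytokine, was at 4.31, 4.03 and 3.88 with flagellin, below the lower quartile of the arrays, against 4.69, 10.93 and 11.20 unstimulated (limma adjusted p 0.00421). Unstimulated array 1 was also below that quartile, so the difference of -4.87 ± 0.99 rests on unstimulated arrays 2 and 3. Il12b, the subunit that IL-12 and IL-23 share, had 6.52, 5.96 and 5.93 with flagellin and 7.36, 11.64 and 11.63 unstimulated, and Il1b had 10.07, 8.75 and 8.92 with flagellin and 10.000, 13.20 and 13.29 unstimulated. For Il1b the groups overlapped. Il12b and Il1b were called at limma adjusted p values of 0.00730 and 0.0135, which reached 0.0589 and 0.0911 with 1 array left out. Il15, which sustains NK and memory T cells, had 9.08, 7.98 and 8.16 with flagellin against 9.61, 11.87 and 11.77 unstimulated (-2.67 ± 0.43, limma adjusted p 0.00215) and was called whichever array was left out. Tnf, tumour necrosis factor, stood at 10.90, 10.69 and 10.13 with flagellin and at 11.40, 13.31 and 13.26 unstimulated, with a limma adjusted p of 0.0236 that reached 0.117 with 1 array left out. Without unstimulated arrays 2 and 3 the median of the cytokine list was -0.04, and 14 of 23 genes were lower with flagellin.

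Chemokines fell in 11 of 23 genes, 7 whichever array was left out, with a median of -1.47. Cxcl10 and Cxcl9, ligands of the receptor Cxcr3 on T cells, were among them. Cxcl10 was measured at 12.15, 8.84 and 9.69 with flagellin, against 13.03, 14.10 and 14.06 unstimulated (-3.51 ± 0.84, limma adjusted p 0.00808). Cxcl9 was measured at 6.77, 6.23 and 6.09 with flagellin against 7.74, 9.74 and 9.91 unstimulated (-2.77 ± 0.38, limma adjusted p 0.00193). In Cxcl9 the highest flagellin array lay 0.97 below unstimulated array 1. Ccl12, a monocyte chemoattractant, had 7.17, 5.27 and 5.14 with flagellin and 7.64, 9.94 and 9.85 unstimulated (-3.28 ± 0.56, limma adjusted p 0.00241), with flagellin arrays 2 and 3 below the lower quartile of all arrays. Ccl5, which attracts T cells and monocytes, had 11.61, 10.15 and 10.28 with flagellin and 12.92, 13.999 and 13.99 unstimulated, and its limma adjusted p of 0.0103 reached 0.0584 with 1 array left out. Cxcl1, a neutrophil attractant, did not pass, at -1.47 ± 0.55 with a limma adjusted p of 0.0610.

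**Figure D3:**
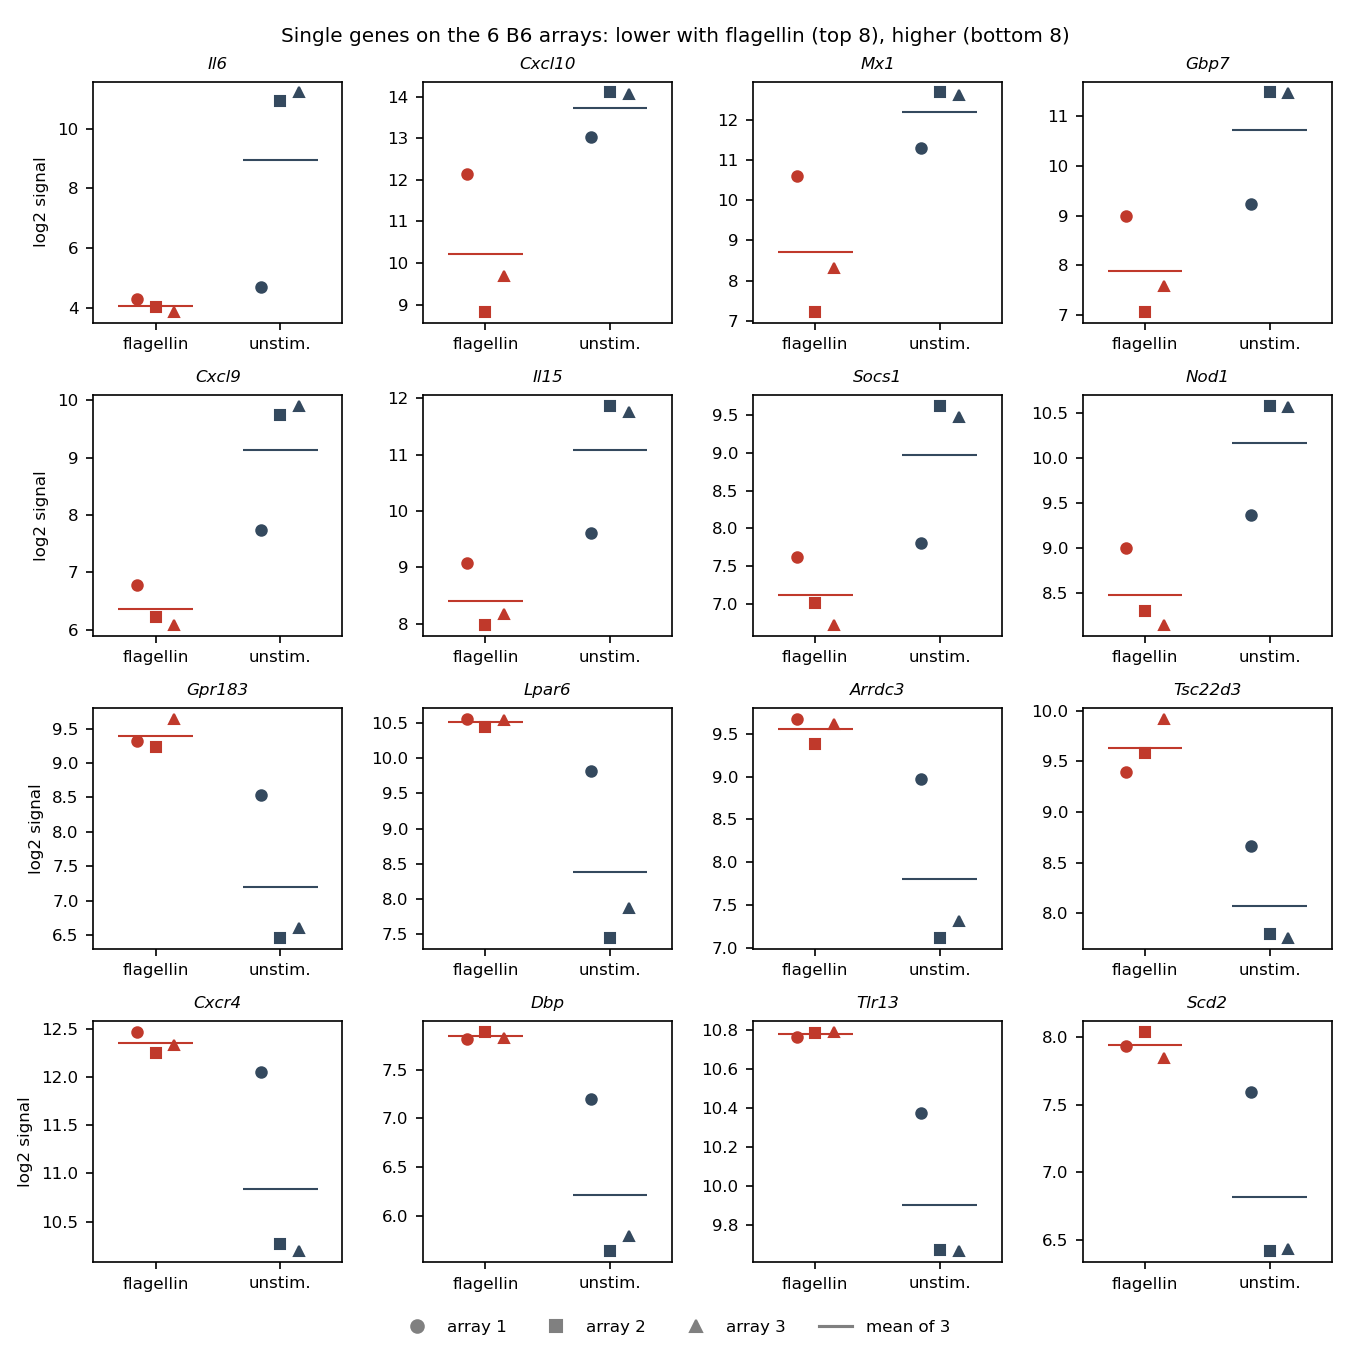
Log2 signals of 16 genes on the 6 B6 arrays, flagellin left and unstimulated right; the symbol gives the array number and the line the mean of 3, and each panel has its own axis. In Il6 unstimulated array 1, at 4.69, lies near the flagellin arrays, and in Tlr13 and Dbp the 3 flagellin arrays lie within 0.1 of each other, above all 3 unstimulated arrays.

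In NF-kB signalling 10 of 22 genes fell and 0 rose, with a median of -0.67. Socs1, the inhibitor of cytokine receptor signalling, gave 7.62, 7.002 and 6.72 with flagellin, against 7.80, 9.63 and 9.47 unstimulated (-1.85 ± 0.33, limma adjusted p 0.00266), and it was the only member called whichever array was left out. Traf1, a signalling adaptor, and Tnfaip3, the ubiquitin-editing inhibitor of NF-kB, fell, at -1.91 and -1.09, with limma adjusted p values of 0.0331 and 0.0315. Cflar, which blocks caspase activation at death receptors, fell by 1.46. Among phosphatases and immediate early factors, 4 of 25 fell and 2 rose, beside 9.49% of all genes that fell and 12.9% that rose. Dusp2, which inactivates MAP kinases, had 9.07, 8.24 and 8.41 with flagellin and 9.13, 10.20 and 10.33 unstimulated. The AP-1 subunits Jun and Fos were the members that rose, with Jun at 11.44, 11.02 and 11.19 with flagellin against 10.92, 10.39 and 10.33 unstimulated (0.67 ± 0.14, limma adjusted p 0.00523), and Fos at 13.09, 12.50 and 12.78 with flagellin against 12.70, 11.51 and 11.47 unstimulated (0.90 ± 0.26), where the groups overlapped. The related subunit Fosb, named after its values were seen, fell by 0.55 (limma adjusted p 0.0341), and Junb, Jund, Fosl1 and Fosl2 did not pass.

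Of the flagellin sensors described here, Naip5 rose and Tlr5 did not pass the test. Tlr5 had 7.33, 7.14 and 7.28 with flagellin and 7.22, 7.41 and 7.36 unstimulated, a difference of -0.08 ± 0.10 that did not pass (limma adjusted p 0.573). Naip5, a cytosolic flagellin sensor, had 9.02, 8.41 and 9.07 with flagellin against 8.40, 8.24 and 8.20 unstimulated, and rose by 0.55 (limma adjusted p 0.0316, up to 0.130 with 1 array left out). Nlrc4 was not analysed here. In the list of flagellin sensing and inflammasome genes 3 of 12 fell and 2 rose, beside 9.49% and 12.9% of all genes. Nlrp3, the sensor of another inflammasome, had 10.80, 10.43 and 10.19 with flagellin and 11.19, 12.37 and 12.51 unstimulated (-1.55 ± 0.36, limma adjusted p 0.00689). Il18, a cytokine that inflammasomes activate, had 10.16, 9.20 and 9.50 with flagellin and 9.96, 11.56 and 11.59 unstimulated, with overlapping groups.

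Of 22 other Toll-like receptor and adaptor genes 5 fell and 2 rose, beside 9.49% and 12.9% of all genes. Tlr13, a receptor for bacterial ribosomal RNA, had 10.77, 10.79 and 10.79 with flagellin and 10.38, 9.67 and 9.67 unstimulated (0.88 ± 0.16, limma adjusted p 0.00274). Its 3 flagellin arrays lay within 0.1 of each other. Nod1, a cytosolic peptidoglycan sensor, had 8.999, 8.30 and 8.15 with flagellin against 9.37, 10.58 and 10.56 unstimulated (-1.69 ± 0.28, limma adjusted p 0.00215), and Tlr3, which detects double-stranded RNA, had 8.29, 7.46 and 7.82 with flagellin against 8.32, 9.71 and 9.69 unstimulated (-1.39 ± 0.26, limma adjusted p 0.00326). Tlr3 on unstimulated array 1 lay 0.03 above the highest flagellin array.

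Effector enzymes fell in 7 of 24 genes, with none higher. Slc7a2, an arginine transporter, had 7.21, 7.54 and 6.38 with flagellin and 8.03, 10.71 and 10.60 unstimulated (-2.74 ± 0.59, limma adjusted p 0.00520). Nos2, the inducible nitric oxide synthase that uses arginine, had 6.28, 6.01 and 6.42 with flagellin against 6.43, 8.02 and 8.32 unstimulated (-1.36 ± 0.28, limma adjusted p 0.00455), and unstimulated array 1 exceeded the highest flagellin array by 0.01. Ptges, a prostaglandin E synthase, and Saa3, an acute-phase protein, fell, at -1.51 and -2.32, with limma adjusted p values of 0.0136 and 0.0264 that reached 0.0852 and 0.119 with 1 array left out.

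The 3 largest rises among called genes, Gpr183, Lpar6 and Cnr2, were in surface receptors. Of 34 receptors for lipids, nucleotides and chemoattractants 12 rose and 5 fell, 3 and 1 whichever array was left out, with a median of 0.23. Over all genes 12.9% rose and 9.49% fell. Gpr183, the receptor for oxysterols that guides immune cell migration, gave 9.32, 9.23 and 9.64 with flagellin, against 8.54, 6.46 and 6.61 unstimulated (2.20 ± 0.38, limma adjusted p 0.00241). Lpar6, a lysophosphatidic acid receptor, gave 10.56, 10.44 and 10.54 with flagellin against 9.82, 7.45 and 7.87 unstimulated (2.13 ± 0.44, limma adjusted p 0.00459). Cxcr4, the receptor for the chemokine Cxcl12, gave 12.47, 12.25 and 12.33 with flagellin against 12.05, 10.26 and 10.20 unstimulated (1.51 ± 0.31, limma adjusted p 0.00421). In all 3 the lowest flagellin array lay above unstimulated array 1, by 0.70, 0.62 and 0.20. Cnr2, the cannabinoid receptor of immune cells, had 7.13, 7.02 and 7.87 with flagellin and 6.28, 5.22 and 4.72 unstimulated, with unstimulated arrays 2 and 3 below the lower quartile, and its limma adjusted p of 0.00666 reached 0.0556 with 1 array left out. Outside the list, Cd300lb, an activating receptor of myeloid cells, had 11.34, 11.09 and 11.54 with flagellin against 10.88, 9.35 and 9.26 unstimulated (1.49 ± 0.27, limma adjusted p 0.00266). Without unstimulated arrays 2 and 3 the median of the receptor list was -0.05.

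Circadian output and glucocorticoid-responsive genes rose in 6 of 24, beside 12.9% of all genes, with 0 lower and a median of 0.02. Tsc22d3, the glucocorticoid-induced leucine zipper, had 9.39, 9.59 and 9.92 with flagellin and 8.67, 7.79 and 7.76 unstimulated (1.56 ± 0.27, limma adjusted p 0.00241), though 1 of its 3 further probe sets moved oppositely. Dbp, a clock output factor, had 7.81, 7.89 and 7.83 with flagellin against 7.20, 5.64 and 5.80 unstimulated (1.63 ± 0.33, limma adjusted p 0.00421). Nr1d2, a repressor of the clock, had 9.66, 9.62 and 9.62 with flagellin against 9.22, 9.06 and 9.19 unstimulated (0.48 ± 0.10, limma adjusted p 0.00401), and Tef, of the same factor family as Dbp, rose by 0.59. In Dbp and Nr1d2 the flagellin arrays spread over less than 0.1 and all lay above unstimulated array 1.

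Of 25 genes associated with FOXO factors and quiescence 8 rose and 3 fell. Arrdc3, an arrestin-domain regulator of receptor trafficking, had 9.67, 9.38 and 9.61 with flagellin and 8.97, 7.12 and 7.32 unstimulated (1.75 ± 0.37, limma adjusted p 0.00480). Sesn1, a sestrin of the stress response, had 10.46, 9.69 and 10.73 with flagellin against 10.06, 7.79 and 8.07 unstimulated, with overlapping groups. Cdkn1b, a cyclin-dependent kinase inhibitor, had 9.82, 9.33 and 9.76 with flagellin against 9.22, 8.40 and 8.57 unstimulated (0.91 ± 0.19, limma adjusted p 0.00519). The related inhibitor Cdkn1a moved oppositely, with 12.55, 12.13 and 11.90 with flagellin against 12.82, 13.60 and 13.58 unstimulated (-1.14 ± 0.21, limma adjusted p 0.00287). In the list of cell cycle and DNA replication 5 of 28 genes rose and 3 fell, beside 12.9% and 9.49% of all genes, and 0 of the rises stayed called whichever array was left out. The helicase subunits Mcm3 and Mcm4 were among the rises, at 0.60 and 0.56, and Cdkn1a among the falls.

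Sterol and lipid synthesis rose in 8 of 23 genes, with 0 lower and a median of 0.13. Scd2, a fatty acid desaturase, had 7.93, 8.04 and 7.84 with flagellin and 7.60, 6.42 and 6.43 unstimulated (1.12 ± 0.23, limma adjusted p 0.00464). Sqle, squalene epoxidase, had 9.86, 9.58 and 9.78 with flagellin against 9.50, 9.04 and 9.04 unstimulated (0.55 ± 0.11, limma adjusted p 0.00442), and Dhcr7, which makes cholesterol in the last step, rose by 0.75 (limma adjusted p 0.00975, up to 0.0759 with 1 array left out). Lysosomal genes rose in 15 of 30, with 0 lower and a median of 0.24, but 1 did so whichever array was left out and 2 with group weights. Npc1, which exports cholesterol from lysosomes, had 10.54, 10.56 and 10.56 with flagellin and 10.35, 9.83 and 9.81 unstimulated, and the proton pump subunit Atp6v1a had 12.31, 12.12 and 12.43 with flagellin and 12.07, 11.83 and 11.67 unstimulated. Of 31 phagocytic and scavenger receptors 6 rose and 1 fell, beside 12.9% and 9.49% of all genes. Trem2, a lipid-sensing receptor, rose by 0.47, with its 1 other probe set of opposite sign, while the inhibitory receptor Fcgr2b fell by 0.85.

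Among the largest rises outside these lists were Susd3, a sushi-domain membrane protein, at 9.46, 9.39 and 9.71 with flagellin against 8.94, 6.75 and 7.09 unstimulated, and Cerk, ceramide kinase, at 10.24, 10.45 and 10.53 with flagellin against 9.86, 8.55 and 8.49 unstimulated (1.44 ± 0.28, limma adjusted p 0.00351). Eya4, a transcriptional coactivator, had 7.08, 6.80 and 7.42 with flagellin and 6.33, 5.61 and 5.26 unstimulated (1.36 ± 0.21, limma adjusted p 0.00193). Neat1, the noncoding RNA of paraspeckles, had 11.63, 12.08 and 12.27 with flagellin against 11.43, 9.85 and 9.70 unstimulated, and its 1 other probe set was lower with flagellin. Of the remaining lists, 3 of 20 glycolysis and hypoxia genes fell with 0 higher, 2 of 16 NRF2 and antioxidant genes rose with 0 lower, and 5 of 22 stress genes fell with 2 higher, beside 12.9% of all genes that rose and 9.49% that fell. The heat shock gene Hspa1b, a stress chaperone, fell by 1.61.

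**Figure D4:**
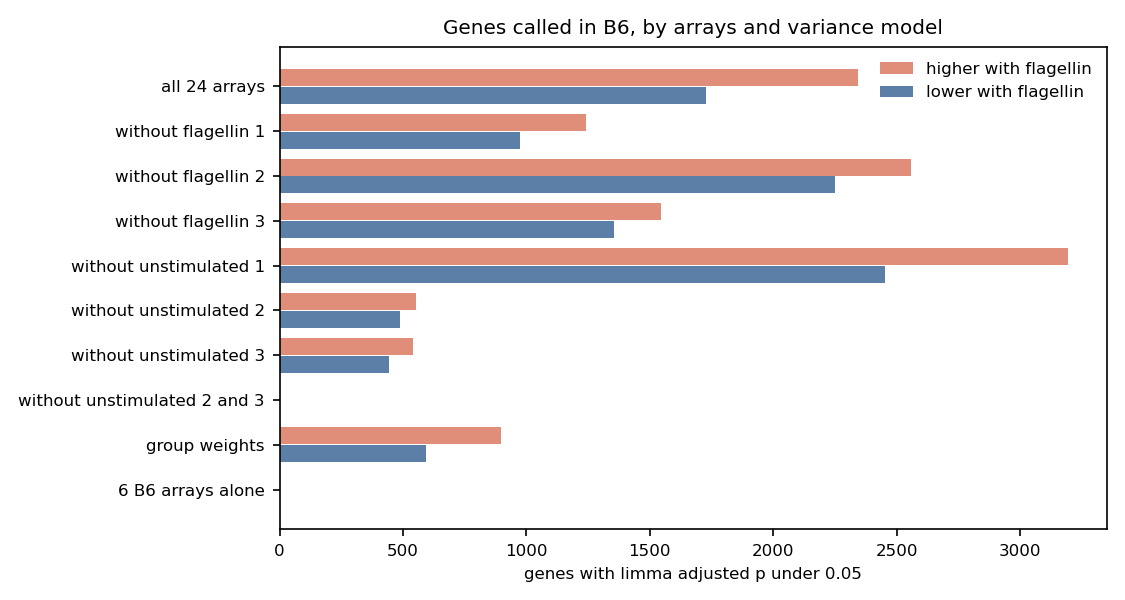
Genes called in B6 at a limma adjusted p under 0.05, higher and lower with flagellin, with all arrays, with each B6 array left out, without unstimulated arrays 2 and 3, with group weights and with the 6 arrays alone. Leaving out unstimulated array 2 or 3 gives 1039 and 985 genes, leaving out unstimulated array 1 gives 5645, and the last bar and the one without arrays 2 and 3 are at 0.

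Markers of other cells were measured beside these results. Stromal markers such as the collagen gene Col1a1, at 8.17 to 11.20 on the 6 arrays, had list means of 7.88, 8.91 and 7.26 on flagellin arrays 1 to 3, against 7.88, 8.75 and 9.24 on unstimulated arrays 1 to 3, and 0 of 15 rose and 0 fell by limma, with a median of -0.74. None of these 15 markers lay below the lower quartile on all 6 arrays. The neutrophil list, in which S100a8 lay at 12.80 to 13.54, had means of 10.65, 9.97 and 10.04 with flagellin and 10.52, 9.78 and 9.76 unstimulated, and 0 of 12 passed in either direction. Mast cell markers fell in 5 of 13, at signals of 4.36 to 8.52, with list means of 5.94, 6.11 and 6.08 against 6.23, 6.33 and 6.36; of these Cpa3, a mast cell protease, had 5.61, 5.61 and 5.83 with flagellin and 5.99, 5.98 and 6.16 unstimulated. List means of B cell markers were 6.23, 6.23 and 6.27 with flagellin and 6.38, 6.31 and 6.38 unstimulated, those of T and NK cell markers 6.99, 7.14 and 7.10 with flagellin and 7.11, 7.04 and 7.08 unstimulated, and those of dendritic cell markers 7.04, 7.11 and 7.03 with flagellin and 7.17, 7.38 and 7.36 unstimulated. Below the lower quartile on all 6 arrays lay 2 of 13 mast cell markers, 0 of 10 B cell, 1 of 11 T and NK cell, 1 of 10 dendritic cell, 0 of 12 neutrophil, 2 of 10 erythroid and megakaryocyte, and 4 of 11 eosinophil and osteoclast markers. B cell markers fell in 3 of 10, at signals of 5.20 to 7.52, dendritic cell markers in 2 of 10, and T and NK cell markers in 2 of 11 with 1 higher. Eosinophil and osteoclast markers fell in 2 of 11, and erythroid and megakaryocyte markers in 0 of 10. Beside these marker counts, 9.49% of all genes fell and 12.9% rose. Lower quartiles were also lower on each flagellin array than on each unstimulated array, as given above. The part of that offset in falls of dim markers was not tested for these lists. In RNA of a whole culture fewer cells of a type and less RNA per cell cannot be told apart, and the part of these cells in the results above was not tested.

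The B6 change was set against that of the other strains to ask where it differed, by testing the difference of the 2 changes in the same limma fit. Against BC-R3, the strain with the B6 background, 1917 genes differed, 757 with a lower change in B6 (4.16%) and 1160 with a higher one (6.38%), a split of 615 and 510 after quantile normalization and of 587 and 1533 after median centring. Against CB-R1 456 differed, 204 lower (1.12%) and 252 higher (1.39%), a split of 218 and 158 after quantile normalization and of 200 and 515 after median centring. Against C3Bir limma called 0 genes, with 2433 genes at an unadjusted p under 0.05. With the compared arrays alone limma called 0 genes in each case, with 4465, 1643 and 4156 at an unadjusted p under 0.05 against BC-R3, C3Bir and CB-R1. Without B6 unstimulated arrays 2 and 3 it also called 0, with 1710, 576 and 1017. Single arrays decided these counts. Against BC-R3 the count was 1071 without B6 flagellin array 1, 803 without B6 flagellin array 3, and 4231, 95 and 107 without B6 unstimulated arrays 1, 2 and 3. It was 600 and 232 without BC-R3 flagellin arrays 2 and 3, and 3885, 140 and 40 without BC-R3 unstimulated arrays 1, 2 and 3. Against CB-R1 it was 1082 without B6 flagellin array 2, 3117 without B6 unstimulated array 1, and 0 when the array left out was B6 flagellin array 3, B6 unstimulated array 2 or 3, any CB-R1 flagellin array or CB-R1 unstimulated array 1 or 2. Against C3Bir it was 80 and 3 without B6 flagellin arrays 1 and 2, 1373 without B6 unstimulated array 1, 8 without C3Bir unstimulated array 1, and 0 without each other array.

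Among genes called against BC-R3 with a lower change in B6 were cytokines, antiviral genes and the activation marker Cd69. Il6 changed by -4.87 ± 0.99 in B6 and by -0.31 ± 0.99 in BC-R3, a difference of -4.56 ± 1.40 (limma adjusted p 0.0444). Il6 on the 3 unstimulated BC-R3 arrays lay at 3.91 to 4.89, against which B6 unstimulated arrays 2 and 3 stood above 10. Not every gene was as even there, since Cd69 lay at 5.57 to 9.55 on the unstimulated BC-R3 arrays. Its limma adjusted p for the B6 change reached 0.0646 with 1 array left out. Cxcl9 differed by -2.68 ± 0.54 (limma adjusted p 0.0145) and Mx1 by -3.43 ± 1.08 (limma adjusted p 0.0481), while Cxcl10 did not pass against BC-R3, at -3.58 ± 1.18 (limma adjusted p 0.0560). Il10 differed by -1.47 ± 0.38 (limma adjusted p 0.0278). In the antiviral list 18 of 41 genes had a lower change in B6 than in BC-R3 and 19 a lower one than in CB-R1, with none higher. Of 23 cytokines 9 and 2 had a lower change, beside 4.16% and 1.12% of all genes.

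Among surface receptors 4 of 34 had a higher change in B6 than in BC-R3 and 3 a lower one, beside 6.38% and 4.16% of all genes. Against CB-R1 3 had a higher and 1 a lower change in B6, beside 1.39% and 1.12% of all genes. Gpr183 changed by 2.20 ± 0.38 in B6, by 0.10 ± 0.38 in BC-R3, by 0.67 ± 0.38 in C3Bir and by -0.03 ± 0.38 in CB-R1. Its difference was 2.10 ± 0.54 against BC-R3, 1.52 ± 0.54 against C3Bir and 2.22 ± 0.54 against CB-R1, with limma adjusted p values of 0.0278, 0.237 and 0.0441. Dbp differed by 1.88 ± 0.47 against BC-R3 and by 1.83 ± 0.47 against CB-R1. Its unstimulated levels were 7.23 to 7.98 in BC-R3 and 7.70 to 7.98 in CB-R1, above the 5.64 and 5.80 of B6 unstimulated arrays 2 and 3. Naip5 also differed from BC-R3, by 0.87 ± 0.25 (limma adjusted p 0.0371), and Tlr5 did not (limma adjusted p 0.216). In the lysosomal list 10 of 30 genes had a higher change in B6 than in BC-R3 and 0 than in CB-R1, beside 6.38% and 1.39% of all genes. In the FOXO and quiescence list 6 of 25 were higher and 1 lower than in BC-R3, and 2 higher than in CB-R1.

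**Figure D5:**
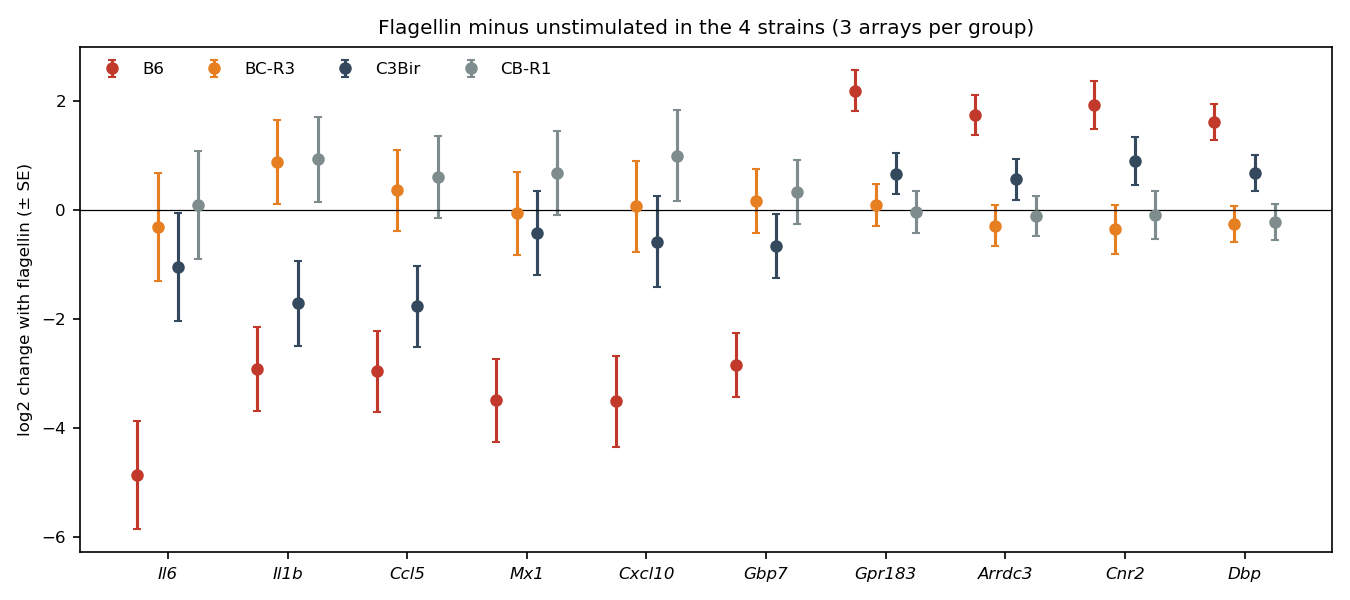
Log2 change with flagellin in the 4 strains for 10 genes, with bars of 1 SE from the limma fit of 24 arrays (3 arrays per group). B6 points lie farthest from 0 in all 10 genes, but these were picked from genes named mostly for large B6 changes or strain differences. That pattern is thus no separate result. Gpr183 is at 2.20 in B6, 0.10 in BC-R3, 0.67 in C3Bir and -0.03 in CB-R1.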

How the data were processed

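Total RNA of cultured macrophages was hybridised to Affymetrix arrays. The deposited values were log2 signals of 45037 probe sets on 24 arrays. Their computation and normalization by the authors are not given in the sources used here. Values were used as deposited. Of 45033 probe sets with values, 34944 had 1 gene symbol in the platform annotation, and for each of 18193 genes the probe set of highest mean signal was taken, with symbols updated through a RefSeq table of GRCm38.p6. Groups came from the sample titles. Limma 3.58.1 in R 4.3.3 (lmFit, eBayes, 16 residual and 3.99 prior degrees of freedom) was fitted to 8 group means, and p-values were two-sided and adjusted by Benjamini-Hochberg over all genes. The code was tested on simulated data in which all 8 groups had equal spread. The B6 groups had the lowest weights of the 8, so that test does not cover their spread. Named genes were the 15 largest rises and falls that stayed called with any B6 array left out, up to 4 called members per list, a fixed set, and the 5 largest differences in each direction between strains. The text describes a part of these 119 genes. The comparison, the 31 gene lists and the naming rule were chosen with earlier results of these data known. Of 658 listed genes 600 were measured. Alternatives were quantile normalization, median centring, a low-value filter, all probe sets in place of genes, averaged probe sets, other variance models, a replicate block, a 2-fold threshold and leaving out arrays.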

Additional observations from a re-analysis of the deposited data

Results flagged for a closer look

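The flagellin change in B6 differed from that in BC-R3 in 1917 genes and from that in CB-R1 in 456 genes, by limma's test of the difference between the strains. The values below are log2 differences of the change, B6 minus the other strain. Among genes called against BC-R3 the lowest differences were Il6 at -4.56 ± 1.40, Cd69 at -4.29 ± 1.29, Il1b at -3.80 ± 1.10, Mx1 at -3.43 ± 1.08 and Ccl5 at -3.32 ± 1.05 (± SE, limma adjusted p 0.0364 to 0.0488). On the unstimulated BC-R3 arrays Cd69 ranged from 5.57 to 9.55 and Ccl5 from 9.07 to 12.44. The highest among called genes were Cnr2 at 2.29 ± 0.63, Gpr183 at 2.10 ± 0.54, Arrdc3 at 2.03 ± 0.52, the ETS factor Fli1 at 1.91 ± 0.49 and the condensin subunit Ncapg2 at 1.89 ± 0.51, with limma adjusted p values of 0.0278 to 0.0323.

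Among genes called against CB-R1 the lowest were Cxcl10 at -4.51 ± 1.18, Mx1 at -4.17 ± 1.08, Oasl1 at -3.90 ± 1.00, Ccl12 at -3.79 ± 0.79 and Cmpk2 at -3.66 ± 0.91. The highest among called genes were Gpr183 at 2.22 ± 0.54, Neat1 at 1.94 ± 0.47, Dbp at 1.83 ± 0.47, Cxcr4 at 1.69 ± 0.44 and the sorting nexin gene Snx24 at 1.60 ± 0.40. Their limma adjusted p values were 0.0388 to 0.0473. Both counts were 0 without B6 unstimulated arrays 2 and 3. Single arrays that stand apart were not tested within groups of 3.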

How the results depend on the processing

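The 4068 genes called in B6 became 0 with the 6 arrays alone and without B6 unstimulated arrays 2 and 3, 1490 with group weights, 7768 with all 45033 probe sets and 302 with a 2-fold change required. The range over left-out arrays was 985 to 5645. Against BC-R3 the 1917 genes became 1125 after quantile normalization, 3624 with all probe sets, 846 with group weights, 289 with a 2-fold change and 0 with the compared arrays alone or without unstimulated arrays 2 and 3, with 40 to 4231 over left-out arrays. Against CB-R1 the 456 became 715 after median centring, 232 with all probe sets, 241 with trend and robust options, 139 with a 2-fold change, and 0 with the mean of probe sets, with the compared arrays alone or without unstimulated arrays 2 and 3, with 0 to 3117 over left-out arrays. Against C3Bir the range over left-out arrays was 0 to 1373. The counts of 0 come from limma; at an unadjusted p under 0.05 B6 had 4524 genes with its arrays alone and 1316 without unstimulated arrays 2 and 3. Fewer arrays enter these fits. Without unstimulated arrays 2 and 3 the differences changed as well. List medians were then -0.04 against -0.99 for cytokines, -1.13 against -1.71 for antiviral genes and -0.05 against 0.23 for surface receptors. The cause of the counts of 0 was not tested. Median centring turned the split in B6 to 2921 higher and 1196 lower, against 2342 and 1726 as deposited. Of 117 named genes called in B6, none changed sign after quantile normalization, median centring or averaging of probe sets, or with arrays left out. The other alternatives kept the same difference of group means of the chosen probe set, so its sign could not change there. Other probe sets were not counted singly, and some moved oppositely, as given above for Neat1, Trem2 and Tsc22d3. Of the 117 genes, 53 lost the call without unstimulated array 2, 62 without unstimulated array 3 and 32 with group weights. Without flagellin array 1 or 3, 18 and 19 lost it. Tlr5, not called, turned to 0.0302, against -0.08 with all arrays, without unstimulated arrays 2 and 3. Equal replicate numbers were not taken as pairs, since the labels tie no number to a mouse. Deviations from the group means correlated at 0.01, 0.11 and -0.35 in same-numbered B6 arrays, which does not show whether the groups share mice. With strain and number as a replicate block, limma called 4348 genes in B6 with a fixed block and 4741 with a random one, 2129 and 2773 against BC-R3, 0 and 0 against C3Bir (2779 and 2794 at an unadjusted p under 0.05), and 584 and 1158 against CB-R1. Dim probe sets are limited by signal over background, which the table does not give.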

Other observations

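Among the flagellin arrays 291 genes had a range of at least 1 log2 unit, among them 31 of 41 antiviral interferon-stimulated genes and 4 of 23 inflammatory cytokines. Among the unstimulated arrays 434 genes did, among them 14 of the 41 antiviral genes and 15 of the 23 cytokines. Flagellin array 1 was the highest flagellin array in 40 of the 41 antiviral genes, and flagellin array 2 the lowest in 36. How often these arrays held those places over all genes was not counted.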
